A study of Homo sapiens with 6 samples.

Results

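The genes described here encode ATP-dependent chromatin remodelers. They were chosen by symbol: the SMARCA to SMARCE genes, the named subunits of the SWI/SNF complexes (ARID1A, ARID1B, ARID2, PBRM1, BRD7, BRD9, DPF1 to DPF3, PHF10, ACTL6A, ACTL6B, BCL7A to BCL7C and SS18), the CHD genes, and INO80 with its lettered subunits. Of the 18625 genes in the deposited table, 40 met the rule. ACTL6B, BCL7A and SMARCA1 were not among them and were not analysed here. NB4 cells, an established line of human acute promyelocytic leukemia, were treated for 3 days with the solvent DMSO or with 10 μM Tan I (Tanshinone I, a lipophilic compound of the herb Dan-shen), and RNA was sequenced from 3 libraries per group. Every library came from this 1 line, and no source used here says whether the replicates were separate cultures, so the p-values measure the spread between these libraries, which may be technical. The question for the remodelers was whether their RNA differed between the treatments.

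Remodelers are engines built around an ATPase of the SNF2 type, which pulls DNA across the histone surface and so slides, evicts or exchanges nucleosomes. SWI/SNF (BAF) complexes open promoters and enhancers and oppose Polycomb repression; the CHD family includes both openers of chromatin and the NuRD deacetylase-remodeler; INO80 spaces nucleosomes and takes part in the exchange of the histone variant H2A.Z. In blood cells SWI/SNF is needed for lineage programmes and for the growth of acute myeloid leukemia cells.

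The libraries held between 21502760 and 31679138 reads on listed genes, and the remodelers took between 0.229% and 0.337% of them. DMSO replicate 2 and Tan I replicate 3 stood apart from the other libraries: the first principal component, which carried 70.8% of the variance between libraries, placed them at 41.1 and 71.6, Tan I replicate 2 at 8.65 and the remaining 3 between -48.0 and -26.7. Of 7 promyelocyte markers 6 were listed, and ELANE was not. MPO (myeloperoxidase) lay between 60390 and 64110 normalized counts in DMSO and between 33280 and 39450 in Tan I. The summed level of the 6, most of it MPO, lay between 71170 and 77320 in DMSO and between 42030 and 50380 in Tan I. CTSG was also lower in Tan I (838.6 to 1496, against 1536 to 2392 in DMSO). In AZU1, PRTN3, CEBPE and CD33 the groups overlapped. Of 5 erythroid and megakaryocytic markers only ITGA2B was listed, at 1060 to 1127 in DMSO and 1332 to 1418 in Tan I. Of 6 late neutrophil markers 4 were listed, with a summed level of 2929 to 3256 normalized counts. Among them MMP9 was higher in Tan I (868.0 to 1210, against 622.9 to 751.3), and the groups overlapped in CSF3R, CAMP and CXCR2. The part of these marker differences in the remodeler values was not tested. Of 5 lymphoid markers 4 were listed, with NKG7 at 378.6 to 741.5, CD3D at 245.2 to 514.8, CD79A at 49.4 to 104.0 and CD3E at 8.67 to 20.0 normalized counts, and MS4A1 was not. The summed lymphoid level was highest in the libraries that stood apart (1102 in DMSO replicate 2 and 1371 in Tan I replicate 3, against 685 to 981 in the others), and its part in the differences below was not tested. In RNA from whole cultures, fewer cells with a transcript and less of it per cell cannot be told apart.

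None of the 40 remodeler genes passed the test between the treatments. Values are deposited normalized counts, that is, reads divided by 1 scaling factor per library, and limma was fitted to log2(normalized count + 1) over the 16887 genes whose mean was at least 10, all 40 included. With a call defined as an unadjusted p of at most 0.05 and a log2 fold change of at least 0.25 in size, 0 remodelers were called, against 408 of all genes tested (2.42%; 1.32% higher and 1.1% lower in Tan I). The smallest unadjusted p of any remodeler was 0.143, and 0 had a p of at most 0.05 whatever the fold change. After Benjamini-Hochberg adjustment 0 genes of the whole table were called by limma (0%), and each remodeler had an adjusted p of 0.999. On the reads recovered from the table, edgeR called 2.42% of genes without adjustment and DESeq2 2.49%, and neither gave any remodeler an unadjusted p of at most 0.05.

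The direction of the small differences was uneven. On the log2 scale 28 remodelers were lower and 12 higher in Tan I, with a median of -0.05 against -0.00 over all genes tested, of which 50.3% were lower, but the remodeler median ran from -0.11 with libraries set to the same total to 0.02 after correction for length and GC content. In 1 remodeler, SMARCD1, the 3 Tan I libraries lay below the 3 DMSO libraries, and in 0 did they lie above. Over all genes tested, 3.97% lay wholly below and 3.92% wholly above. The 95% interval of the difference lay within ±0.5 for 17 remodelers and within ±1 for 36, so differences of over 2-fold were outside the interval for those 36, while in 0 did it lie within ±0.25. The intervals left small changes undecided: their half-widths ran from 0.23 to 1.26, with a median of 0.42.

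**Figure D1:**
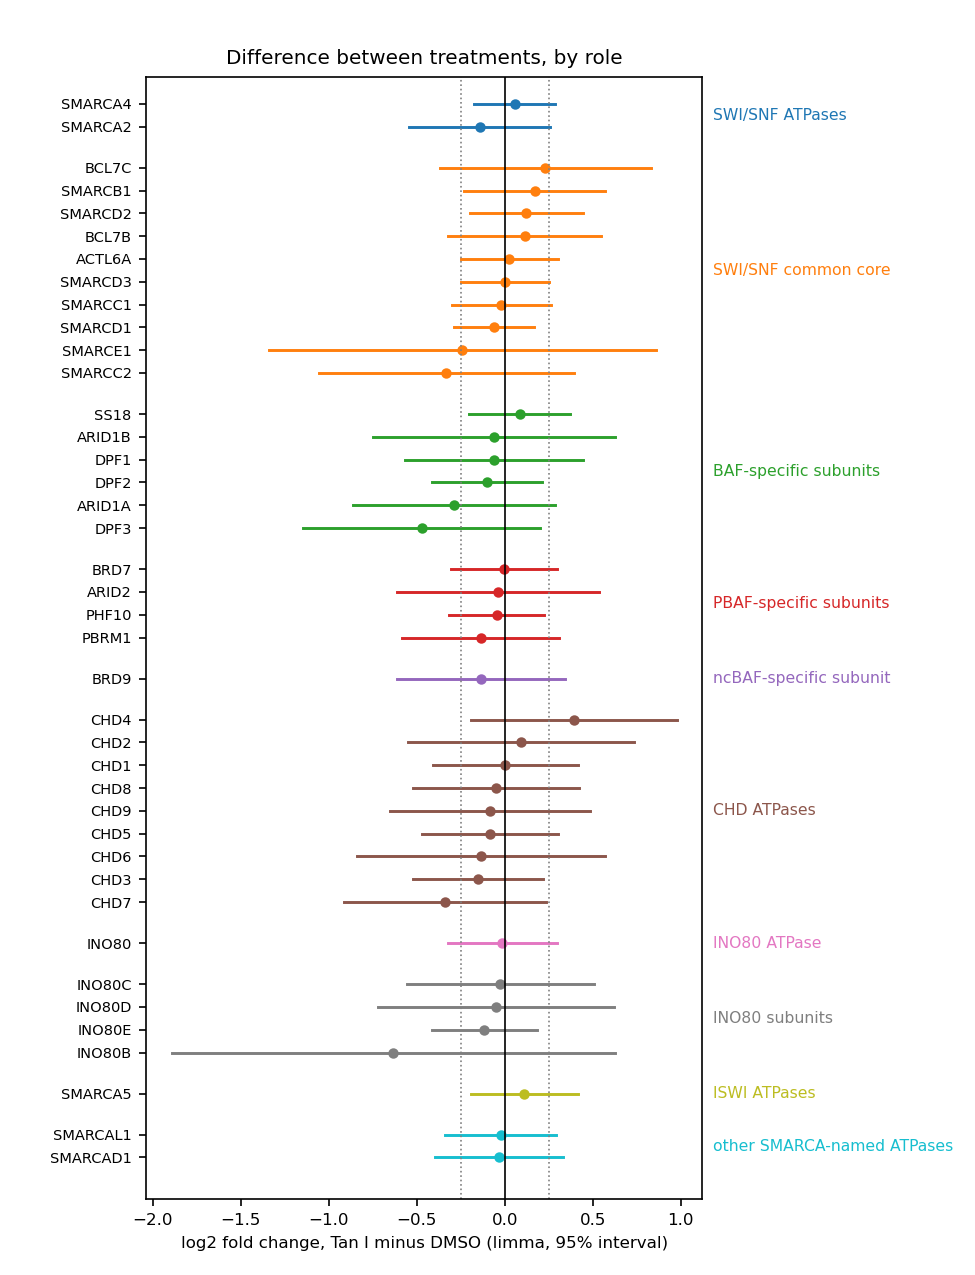
Log2 fold change of each of the 40 remodeler genes, Tan I minus DMSO, with its 95% interval from limma (3 libraries per group), grouped by role; dotted lines mark ±0.25. Every interval crosses 0; CHD4 at 0.39 lies farthest to the right and INO80B at -0.63 farthest to the left, with the widest interval.

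Libraries of the same group differed widely, in remodelers as in most genes. In all 40 remodelers the range of log2 values within at least 1 group was larger than the difference between the group means, as in 96.0% of all genes tested. In 38 of them the ranges of both groups were (81.7% of all genes). A range of single libraries is set here against a difference of means of 3 libraries, so the range tends to be the larger. The spread was shared: 22 remodelers were lower in both DMSO replicate 2 and Tan I replicate 3 than the mean of the other libraries of the same group, 15 were higher in both, and 3 moved in opposite directions. Of all genes tested 39.5% were lower in both and 42.4% higher in both.

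This pattern ran along transcript length. Remodeler genes are long: the median length of their canonical transcripts (GENCODE release 44) was 5500 bases, against 2588 over all genes tested. Of the 20 remodelers above that median, 16 were lower in both libraries, with medians of -0.38 in DMSO replicate 2 and -0.40 in Tan I replicate 3 relative to the rest of the group. Of the 20 below it, 13 were higher in both, with medians of 0.18 and 0.20. Over the 40 genes, Spearman's rho between length and the deviation was -0.53 in DMSO replicate 2 and -0.49 in Tan I replicate 3. Over 16825 genes with a known length it was -0.15 and -0.25. These are descriptions across genes that share libraries and are not independent replicates. All genes longer than 5500 bases (2773) showed medians of -0.23 and -0.32, so the direction was not particular to remodelers. The part of this library difference in each gene's values was not tested. Between the treatments, the median log2 fold change was -0.086 over all genes above that length and -0.055 over the longer remodelers. Below it the medians were 0.021 over all genes and -0.028 over the shorter remodelers.

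**Figure D2:**
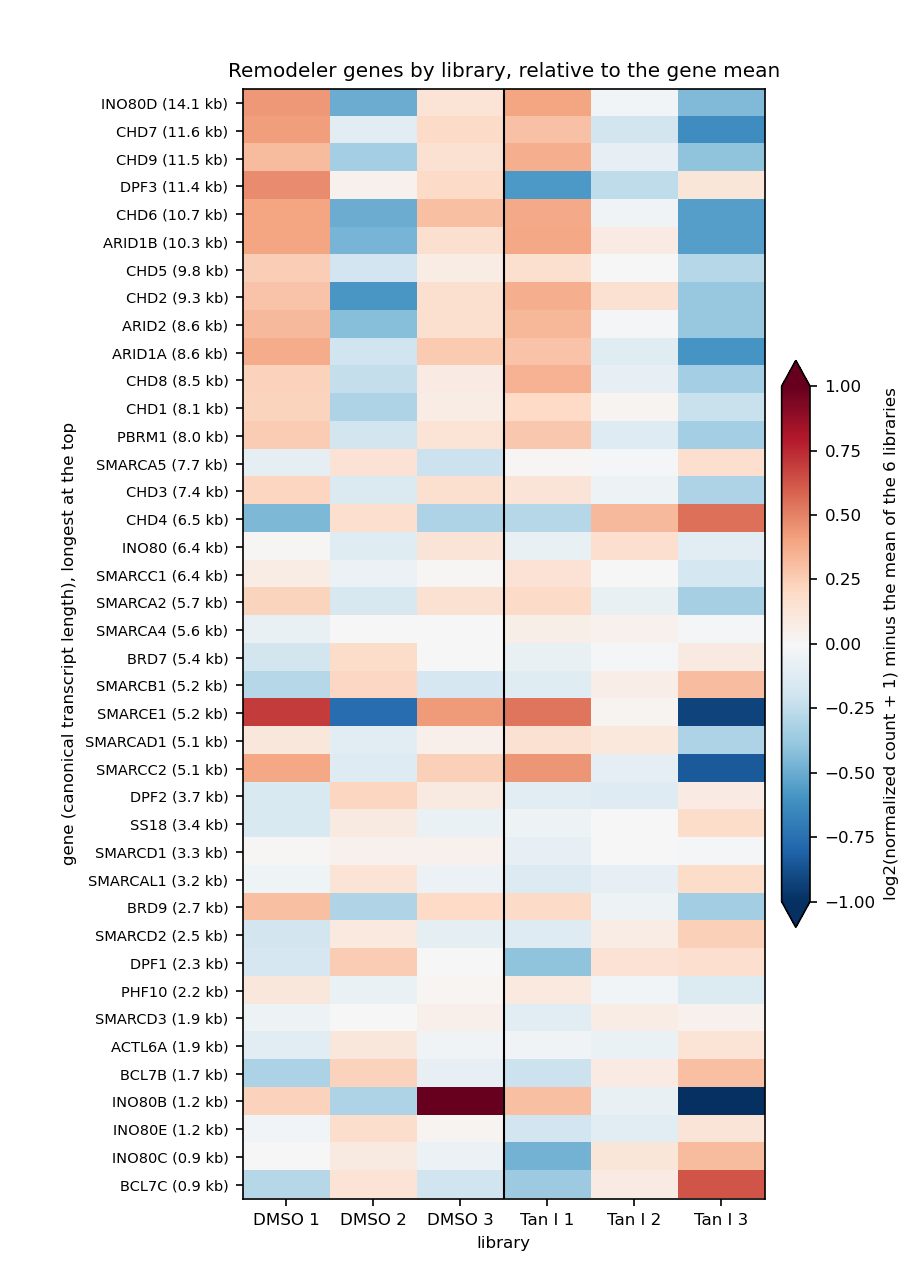
Log2(normalized count + 1) of the 40 remodeler genes in each of the 6 libraries, minus the gene's mean over them (colour, limited to ±1), with the longest canonical transcript at the top; the line separates DMSO from Tan I. The long genes are mostly blue in DMSO 2 and Tan I 3, where CHD4 is red, and SMARCE1 shows the strongest contrast among well-counted genes.

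**Figure D3:**
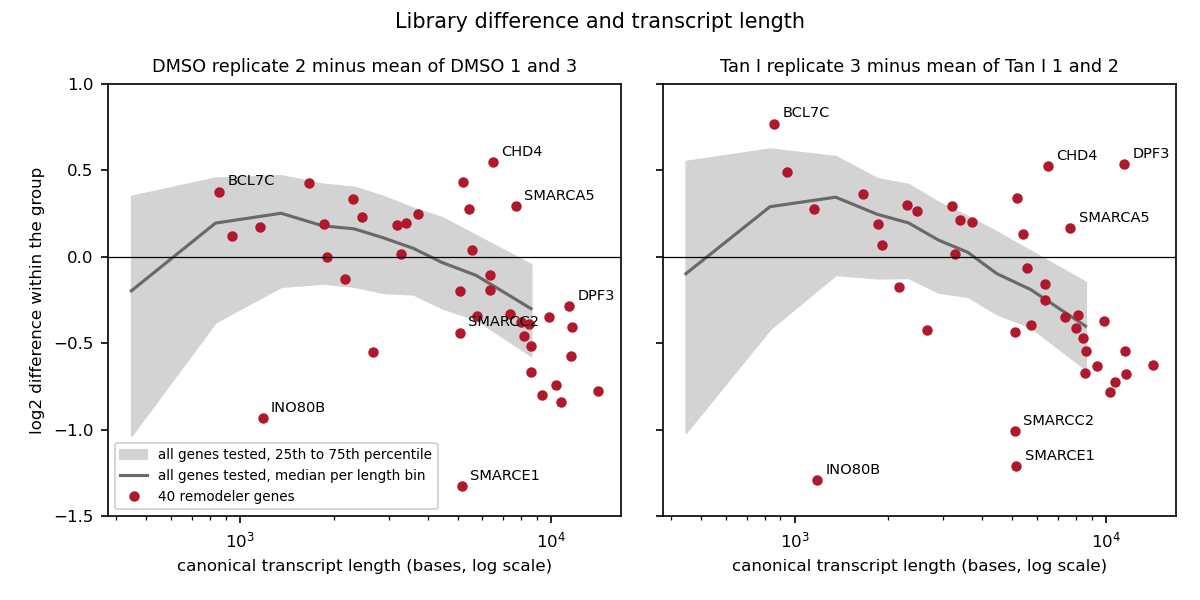
Deviation of DMSO replicate 2 (left) and Tan I replicate 3 (right) from the mean of the other libraries of the group, in log2 units, against canonical transcript length on a log axis; points are the 40 remodelers, the line and band are the median and the 25th to 75th percentile of all genes tested in 10 length bins. The median falls to -0.30 and -0.40 in the bin of the longest genes, and 15 remodelers lie in that bin.

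Promoters of 33 remodelers were found in RefSeq (GRCh38.p14), as windows from 250 bases before to 50 after the start site, taking the start nearest to that of the GENCODE canonical transcript. That start lay 18848 bases away for CHD8, 5473 for DPF1, 928 for CHD4 and 352 for INO80C, so these windows are not at the canonical start. ACTL6A, ARID2, CHD5, CHD6, CHD7, SMARCC1 and SMARCC2 had no entry. Of the 33, 30 were CpG-rich, with at least 50% G+C and an observed-to-expected CpG ratio of at least 0.6 (90.9%, against 80.9% of the promoters of 10507 genes tested). On either strand, 0 of the 33 held the letters TATAAA (5.38% of all), 8 held CCAAT (24.2%, against 36.5%) and 10 held CGGAAG, the core letters read by ETS factors (30.3%, against 33.7%). The windows of CHD8 and DPF1 were among those with CCAAT. A match of letters is a description and shows no binding. The 100 bases before the outermost annotated exon are shown for the ATPase gene with the steadiest values, for the 1 gene whose groups did not overlap, and for the remodeler with the lowest level per length, with CG steps in capitals.
SMARCA4, chr19:10960832-10960931, plus strand: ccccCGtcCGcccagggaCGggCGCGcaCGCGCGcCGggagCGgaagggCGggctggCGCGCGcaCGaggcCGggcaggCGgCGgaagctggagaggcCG
SMARCD1, chr12:50085100-50085199, plus strand: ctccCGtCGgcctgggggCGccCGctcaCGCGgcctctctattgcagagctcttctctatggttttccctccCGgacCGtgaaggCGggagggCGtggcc
DPF3, chr14:72894102-72894201, minus strand: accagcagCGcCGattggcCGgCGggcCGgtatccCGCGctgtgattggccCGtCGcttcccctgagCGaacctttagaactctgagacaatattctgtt
The 3 stretches held 19, 10 and 10 CG steps, and 84%, 69% and 60% G+C.

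SMARCA4 (BRG1) and SMARCA2 (BRM) are the alternative ATPases of SWI/SNF, and neither passed the test. SMARCA4 (ENSG00000127616, chr19:10960932-11079426) was among the steadiest genes, at 2960, 3119 and 3119 normalized counts in DMSO and 3256, 3213 and 3090 in Tan I. The groups overlapped, and the highest library of each group was 1.05-fold its lowest. The log2 fold change was 0.06 (95% interval -0.18 to 0.29). SMARCA2 measured 3816, 2938 and 3639 in DMSO and 3748, 3109 and 2598 in Tan I. It was lowest in the libraries that stood apart, and its difference of -0.14 (-0.54 to 0.26) was smaller than the spread within either group.

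The group taken here as the common core of SWI/SNF, though not every form holds each subunit, has the scaffold subunits SMARCC1 and SMARCC2 and the SMARCD subunits that bind transcription factors. It also has the nucleosome-contacting SMARCB1, the HMG-box subunit SMARCE1, the actin-related ACTL6A and the BCL7 proteins. Of its 10 genes, 6 were higher and 4 lower in Tan I, with a median of 0.01, and 0 passed the test. SMARCD1 (ENSG00000066117, chr12:50085200-50100707) measured 2765, 2832 and 2829 in DMSO and 2598, 2763 and 2715 in Tan I. All 3 Tan I libraries were below all 3 DMSO libraries, by a small margin. The DMSO mean was 2809 ± 38.0 and the Tan I mean 2692 ± 85.0 (n = 3 per group, ± SD). The log2 fold change was -0.06 (-0.29 to 0.17), and the exact two-sided permutation test gave p = 0.1, the smallest that 3 against 3 libraries allow. That p follows from the lack of overlap and adds nothing to it. The size of this difference followed the scaling, from -0.12 when libraries were set to the same total to -0.01 after correction for length and GC content.

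SMARCC2 (chr12:56162359-56189567) measured 2433, 1704 and 2193 in DMSO and 2519, 1738 and 1039 in Tan I. Tan I replicate 1 was the highest library and Tan I replicate 3 the lowest, a 2.42-fold range within 1 group. The log2 fold change was -0.33 (-1.06 to 0.39), and over the alternatives it ran from -0.64 to 0.00. Without Tan I replicate 1 it was -0.64 with an unadjusted limma p of 0.0403 and an adjusted p of 0.532. Its partner scaffold SMARCC1 stayed between 2634 and 3283 in all libraries (-0.02; -0.30 to 0.26).

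SMARCE1 (BAF57, chr17:40624962-40648654), singled out after its values were seen, varied most among the well-counted members. It measured 821.5, 297.6 and 679.8 in DMSO and 734.0, 516.4 and 265.4 in Tan I. DMSO replicate 2 and Tan I replicate 3 were lowest, and the range within a group was 2.75-fold in DMSO and 2.76-fold in Tan I. The difference of -0.24 had an interval from -1.34 to 0.86. In GENCODE release 44, 51.5% of the exon bases of its canonical transcript are shared on the same strand with another gene model, ENSG00000264058, which was not listed, so its level is uncertain.

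Other core subunits ran the opposite way between libraries. SMARCB1 measured 1995, 2808 and 2170 in DMSO and 2240, 2546 and 3026 in Tan I (log2 fold change 0.17; -0.23 to 0.57). BCL7C measured 467.2, 626.1 and 497.0 in DMSO and 441.8, 602.8 and 881.5 in Tan I (0.23; -0.37 to 0.83). SMARCD2, which takes part in granulocyte development, measured 2805, 3405 and 2993 in DMSO and 2922, 3352 and 3761 in Tan I (0.12; -0.20 to 0.44). In each of the 3 genes DMSO replicate 2 was the highest of its group and Tan I replicate 3 the highest of all, and the groups overlapped. BCL7B showed the same order with a difference of 0.11 (-0.32 to 0.55). ACTL6A and SMARCD3 stayed within 1.17-fold in each group, with differences of 0.03 and 0.00.

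Of the 6 genes grouped here under the BAF form, not all of them restricted to it, 5 were lower and 1 higher in Tan I, and 0 passed the test. DPF3 (BAF45C, ENSG00000205683, chr14:72609034-72894101), a reader of histone acetylation, measured 49.4, 36.6 and 40.6 normalized counts in DMSO and 23.5, 29.5 and 38.7 in Tan I, from 24 to 53 reads per library. The groups overlapped only through Tan I replicate 3, which was above DMSO replicate 2. The DMSO mean was 42.2 ± 6.56 and the Tan I mean 30.6 ± 7.66 (n = 3 per group, ± SD). The log2 fold change was -0.47 (-1.14 to 0.20), with the smallest unadjusted p among the remodelers (limma, 0.143). Without DMSO replicate 2 and Tan I replicate 3 together, an alternative chosen after seeing the data, it was -0.75 with an unadjusted limma p of 0.0474 and an adjusted p of 0.993. DPF3 was the 1 remodeler called there. How many of all genes were called without adjustment in that setting is not given here, so this call has no background beside it.

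ARID1A (BAF250A, chr1:26693236-26782104), the DNA-binding subunit most often lost in cancers, measured 2464, 1661 and 2288 in DMSO and 2323, 1755 and 1266 in Tan I. The libraries that stood apart were lowest in their groups, and the groups overlapped. The difference was -0.29 (-0.86 to 0.29). Its alternative ARID1B measured 1848, 1020 and 1576 in DMSO and 1836, 1488 and 958.8 in Tan I, a difference of -0.06 (-0.75 to 0.63). DPF2, the DPF protein with the highest level, had a difference of -0.10 (-0.42 to 0.21), DPF1 of -0.06 (-0.57 to 0.45), and SS18, the subunit fused in synovial sarcoma, of 0.08 (-0.20 to 0.37).

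The 4 PBAF-specific subunits moved little, from -0.14 for the bromodomain subunit PBRM1 to -0.00 for BRD7, with ARID2 and PHF10 between them at -0.04 and -0.05. BRD9, which marks the non-canonical BAF form and was singled out for its level, measured 6286, 4132 and 5849 in DMSO and 5830, 4931 and 4003 in Tan I. At 2665 bases it is short for a remodeler (median 5500), though near the median of 2588 over all genes tested. It was lowest in DMSO replicate 2 and Tan I replicate 3. Its difference of -0.13 (-0.61 to 0.35) was within the spread of both groups.

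Of the 9 CHD ATPases, 3 were higher and 6 lower in Tan I, with a median of -0.08, and 0 passed the test. CHD4 (Mi-2β, ENSG00000111642, chr12:6570082-6614524), the main ATPase of NuRD, had the largest rise of any remodeler. It measured 742.2, 1140 and 818.1 in DMSO and 832.8, 1272 and 1482 in Tan I. DMSO replicate 2 lay above Tan I replicate 1, so the groups overlapped. The DMSO mean was 900.2 ± 211 and the Tan I mean 1195 ± 331 (n = 3 per group, ± SD). The log2 fold change was 0.39 (SE 0.25, 95% interval -0.19 to 0.98), with an unadjusted limma p of 0.157 and an adjusted p of 0.999.

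CHD4 and SMARCA5 were the 2 of the 20 longer members that were higher in both libraries that stood apart. At 6491 bases CHD4 was higher in DMSO replicate 2 (0.55) and Tan I replicate 3 (0.53) than in the rest of the group. In GENCODE release 44, 90.1% of the exon bases of its canonical transcript lie on the same strand as exons of a second gene model, ENSG00000285238, which was not listed. How the counting assigned reads shared by both models was not given in the sources used here, so the level of CHD4 is uncertain. Over the alternatives its log2 fold change stayed between 0.22 and 0.63. Without Tan I replicate 1 it was 0.63 with an unadjusted limma p of 0.0181 and an adjusted p of 0.532. When the first principal component entered limma as a covariate it was 0.24, and the limma p was 0.00814 before and 0.166 after adjustment. Over all genes, the calls without adjustment also rose with that covariate and varied with the library left out, as given in the last section.

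CHD7, an ATPase of enhancers, had the largest fall of the family and measured 1687, 1174 and 1440 in DMSO and 1547, 1108 and 817.5 in Tan I. The Tan I replicate 1 library was above DMSO replicates 2 and 3, and the groups overlapped. The difference was -0.34 (-0.92 to 0.23). Without Tan I replicate 1 it was -0.58 with an unadjusted limma p of 0.0262 and an adjusted p of 0.532, and with that covariate it was -0.19 with an unadjusted limma p of 0.0193 and an adjusted p of 0.227. As for CHD4, the calls over all genes rose with that covariate and varied with the library left out.

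CHD2, which had the most normalized counts per kilobase of canonical transcript of all the ATPases (per kilobase of all annotated exons CHD1 had 268.6 and CHD2 265.3), measured 6730, 3698 and 6161 in DMSO and 7102, 6140 and 4255 in Tan I. The 2 lowest libraries were those that stood apart, and the difference of 0.09 (-0.55 to 0.73) was far below the 1.82-fold range within DMSO. With the same covariate it was 0.26 and the limma p was 0.00322 before and 0.115 after adjustment, the smallest adjusted p of any remodeler under any alternative. Each of the other alternatives gave CHD2 a p above 0.05, and its difference ran from -0.18 to 0.30 over them. CHD1, which binds methylated histone H3 at active genes, differed by 0.00 (-0.41 to 0.41), and CHD8, a regulator of β-catenin targets, by -0.05 (-0.52 to 0.42). CHD3, the alternative NuRD ATPase, differed by -0.15 (-0.52 to 0.22), and the mainly neuronal CHD5, listed at 1375 to 1994 normalized counts, by -0.09 (-0.47 to 0.30). CHD6 and CHD9 differed by -0.14 and -0.08, and CHD6 had the widest interval of the family, from -0.84 to 0.57.

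The ATPase INO80 measured 825.2, 752.2 and 898.6 in DMSO and 777.1, 921.1 and 758.8 in Tan I. The groups overlapped throughout, and the difference was -0.01 (-0.32 to 0.30). All 4 of its lettered subunits were lower in Tan I and 0 passed the test: INO80C at -0.03, INO80D at -0.05, INO80E at -0.12 and INO80B at -0.63. Over the alternatives INO80C ran from -0.19 to 0.21 and INO80D from -0.31 to 0.16, so their direction was not stable. INO80E and INO80B stayed below 0. INO80B (chr2:74455087-74457944), a zinc-finger subunit, had the largest fall of any remodeler, yet rested on few reads, with 17, 11 and 36 in DMSO and 17, 12 and 4 in Tan I. As normalized counts these were 15.9, 10.6 and 28.1, and 16.6, 12.7 and 5.33. DMSO replicate 3 alone was high and Tan I replicate 3 alone low, and the interval ran from -1.89 to 0.63. In GENCODE release 44, 92.8% of its canonical exon bases are shared with the read-through gene INO80B-WBP1, which was not listed.

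SMARCA5 (SNF2H), the ATPase of ISWI complexes, measured 1743, 2050 and 1602 in DMSO and 1876, 1843 and 2086 in Tan I. Like CHD4 it is long, at 7684 bases, and was highest in the libraries that stood apart. The difference was 0.11 (-0.19 to 0.41). SMARCAD1, which acts behind the replication fork, and SMARCAL1, which reanneals DNA at stalled forks, differed by -0.03 (-0.40 to 0.33) and -0.02 (-0.34 to 0.29).

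Levels of different genes were compared as normalized counts per kilobase of canonical transcript, averaged over the 6 libraries. They spanned 609-fold. BRD9 was highest at 1941, followed by the PBAF subunit PHF10 at 1540, SMARCD2 at 1301 and INO80E at 1253. DPF3 was lowest at 3.19, with INO80B at 12.6 and CHD9 at 57.4 above it. The core subunits had a median of 752 and the CHD ATPases of 245. Among ATPases the order was CHD2 at 607.6, SMARCA2 at 575.5 and SMARCA4 at 560.5, whose libraries overlapped, then CHD1 at 356.6, CHD3 at 323.7, CHD8 at 280.3, CHD6 at 245.0, SMARCA5 at 242.9 and SMARCAL1 at 241.8. SMARCAD1 (177.1), CHD5 (172.0), CHD4 (161.4), INO80 (129.2), CHD7 (111.6) and CHD9 closed it.

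The order depended in part on which length was used. Per kilobase of all annotated exons of the gene, SMARCD1 was highest at 561 and BRD9 followed PHF10 and SMARCD2 at 541.6, while DPF3 and INO80B stayed last. Spearman's rho between both orders was 0.88 over the 40 genes. In all, 4 remodelers (CHD4, INO80B, SMARCE1 and INO80C) shared over 10% of their canonical exon bases with another gene model on the same strand, and 11 on the opposite strand, the largest share being 56.3% for SMARCB1. Whether reads were counted by strand was not given in the sources used here, so the levels of these genes are uncertain as well.

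Some of the paralogs paired here, though not all, are alternatives for the same place in a complex. The ratio of 2 paralogs within a library does not depend on the library's scaling. Of 16 pairs, 13 had both genes listed. SMARCA4 per kilobase was 0.80, 1.09 and 0.88 times SMARCA2 in DMSO and 0.90, 1.07 and 1.23 times in Tan I. The ratio was above 1 in DMSO replicate 2 and in Tan I replicates 2 and 3, and within each group its order was that of the first principal component. SMARCC1 was 1.03, 1.34 and 1.10 times SMARCC2 in DMSO and 1.04, 1.38 and 2.03 times in Tan I, in the same order of libraries within each group.

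The ratios of CHD4 to its relatives showed the widest swings. CHD4 per kilobase was 0.57, 1.18 and 0.70 times CHD5 in DMSO and 0.67, 1.15 and 1.64 times in Tan I, a 2.89-fold range. CHD4 per kilobase was 0.31, 0.61 and 0.35 times CHD3 in DMSO and 0.37, 0.63 and 0.88 times in Tan I, a 2.87-fold range over the libraries with overlapping groups. Both ratios rest on the uncertain CHD4 level given above. DPF2 was 93.3 to 203 times DPF3 and 5.06 to 7.57 times DPF1 in every library.

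In 2 of the 13 pairs the groups did not overlap. No test was made of either, and with 3 against 3 libraries an exact permutation test could not have given a p below 0.1. The share of such pairs among other genes was not computed, so this count has no background beside it. ARID1A per kilobase was 1.60, 1.95 and 1.74 times ARID1B in DMSO and 1.52, 1.41 and 1.58 times in Tan I, lower in each Tan I library by a log2 difference of -0.23 in the means. CHD8 was 2.23, 2.32 and 2.35 times CHD7 in DMSO and 2.63, 2.74 and 3.11 times in Tan I, higher in each Tan I library by 0.29. These 4 genes are all long, from 8467 to 11606 bases, and the range within a group was 0.08 to 0.29 on the log2 scale.

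**Figure D4:**
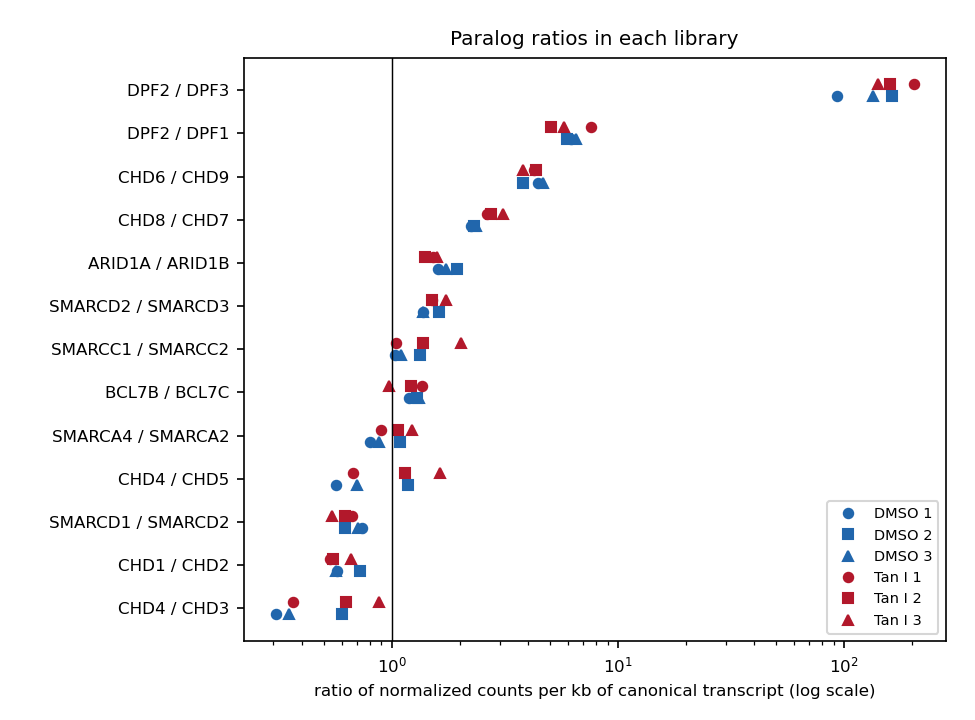
Ratio of normalized counts per kilobase of canonical transcript between paralogs in each library (log axis; blue, DMSO; red, Tan I; circle, square and triangle, replicates 1, 2 and 3), for 13 pairs. The DMSO and Tan I points are separate for ARID1A / ARID1B and for CHD8 / CHD7; for CHD4 / CHD3 they run from 0.31 to 0.88 and interleave.

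The other genes of the same machines gave a like picture. Of 53 partners (NuRD, ISWI, SRCAP, TIP60 and further SWI/SNF and SNF2-family genes), 0 passed the test, 27 were higher and 26 lower, and the median difference was 0.00. The groups did not overlap in 3, 2 higher and 1 lower in Tan I, beside 3.92% and 3.97% of all genes tested. They are named after their values were seen. YY1, the zinc-finger factor bound to INO80, measured 3436, 3406 and 3346 in DMSO and 3615, 4053 and 3594 in Tan I (difference 0.14). MTA2, a NuRD scaffold, measured 6636, 6755 and 7128 in DMSO and 7190, 7972 and 7680 in Tan I (difference 0.15). SS18L1, the neuronal relative of SS18, measured 1572, 1490 and 1549 in DMSO and 1424, 1323 and 1280 in Tan I (difference -0.20). The exact two-sided permutation test gave each of them p = 0.1, the smallest possible. That p follows from the lack of overlap by which they were picked, and adds nothing to it.

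TFPT, an INO80 subunit also named after its values were seen, had the smallest p of the partners. It measured 414.0, 605.8 and 511.0 in DMSO and 539.5, 718.8 and 893.5 in Tan I, with a log2 fold change of 0.48 (SE 0.22) and an unadjusted limma p of 0.0657. Its groups overlapped, and each was highest in the library that stood apart. On the opposite strand, 33.7% of its canonical exon bases are shared with PRPF31, listed at a mean of 900.7 normalized counts.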

How the data were processed

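Per the study's methods and the labels, the authors aligned reads to human GRCh38 with STAR, removed reads mapped to several places, counted genes with featureCounts and scaled them with DESeq2. Versions, annotation release and strand setting are not given in the sources used here. The deposited values are a signal: read counts divided by 1 factor per library. Dividing by the step of each library gave whole reads for 100% of values (tolerance 0.01). The table also holds the authors' own comparison (fold changes, standard errors, statistics and p-values), which was not used.

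Genes with a mean of at least 10 (16887) were tested with limma 3.58.1 (R 4.3.3; linear model with a variance trend) on log2(normalized count + 1), with Benjamini-Hochberg adjustment over all of them. A call needed p of at most 0.05 and a log2 fold change of at least 0.25 in size, without or with adjustment. Intervals are 95% intervals from limma. edgeR 4.0.16 and DESeq2 1.42.0 were run on the recovered reads. The fits were first tested on simulated data. Transcript lengths, exon overlaps and coordinates came from GENCODE release 44, which held 99.6% of gene identifiers. The members, gene lists and tests were chosen with earlier results of these data known.

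Named were the genes with p of at most 0.05, those whose groups did not overlap, the 5 largest rises and 5 largest falls, the ATPases and the paralog pairs, and of the partners those with p of at most 0.05. Others were named to account for every member. Alternatives were pseudocounts of 0.1 and 10, no filter, a mean of at least 50, other scalings and tools, a replicate block, leaving out libraries, the first principal component entered as a covariate, and correction for length and GC content (splines with 5 degrees of freedom). Depth is given with the libraries, and the zebrafish samples of the study were not analysed here. A further lymphoid marker of the planned list is not reported here.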

Additional observations from a re-analysis of the deposited data

How the results depend on the processing

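Across 19 alternatives, 0 remodelers were called with adjustment. Without adjustment, the count of remodelers called left 0 in 3 settings. Without 1 library it ranged from 0 to 3 (3, CHD4, CHD7 and SMARCC2, without Tan I replicate 1). With the first principal component entered as a covariate it was 1 (CHD2), and without DMSO replicate 2 and Tan I replicate 3 together 1 (DPF3). The calls over all genes shifted as well, as given below. Their count without Tan I replicate 1, or without both libraries, is not given here. These calls are therefore no result about the genes named. With that covariate CHD4, CHD7, INO80E (unadjusted limma p 0.0152) and ARID1A (0.0488) also had a p of at most 0.05. Their fold changes were too small for a call. That covariate was computed from the same values that were tested. How many of all genes had such a p there, whatever the fold change, is not given here. Partner genes called without adjustment ranged from 0 to 2 without 1 library, and were 4 with the first principal component, and 1 each with the same total, DESeq2, the replicate block, the length and GC correction, and both libraries left out; TFPT was among them in each of these settings. For all genes, the calls without adjustment ranged from 160 to 1496 without 1 library and were 1496 with the first principal component. With adjustment they were 194 with that covariate, 16 with DESeq2 and 2 without both libraries. The causes of these shifts were not tested. Whether same-numbered libraries were paired is not stated in the sources used here. Their deviations from the group means correlated at 0.75, -0.09 and -0.45. Between differently numbered libraries the correlations ran from -0.75 to 0.76, the highest between DMSO replicate 2 and Tan I replicate 3. These values cannot settle it, since the 3 deviations of a group are not independent. With the replicate block 348 genes and 0 remodelers were called. Setting libraries to the same total moved the median of all genes by -0.06. Of 758 remodeler values under alternatives, 752 moved by less than 1 replicate SD. The other 6 were 3 each for SMARCA4 and SMARCD1, under quantile normalization, the same total and the length and GC correction, with SMARCA4 at -0.00 when set to the same total. With 3 libraries per group an exact test cannot go below 0.1, and DPF3 and INO80B rest on few reads.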
